A study of Mus musculus with 13 samples.

Results

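Selectins, the adhesion lectins of leukocytes, platelets and vessel walls, bind glycans that carry sialic acid and fucose on a galactose-containing chain. PSGL-1, encoded by Selplg, is their best known protein carrier on leukocytes, and the glycans of its mucin-like stem are built in the Golgi apparatus. Building starts when a polypeptide GalNAc-transferase places GalNAc on serine or threonine, goes on when C1galt1 adds galactose to make core 1, and reaches the selectin-binding end when B4galt-family enzymes, sialyltransferases and fucosyltransferases extend a branch, with sugar donors made in the cytosol or nucleus and carried into the Golgi.

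The 10 genes described here act at different points of that work and were chosen by name: Slc35a1, Gne and Nans for sialic acid, Galt for galactose use, B4galt1 and C1galt1 for galactose transfer, Galnt12 for the start of O-glycans, Fut9 for fucosylation, and Alg2 and Manea for N-glycans. They are 10 of 56923 gene IDs in the count files, with 9 on mouse chromosome 4 and 1, C1galt1, on chromosome 6. In most of the genome the counts did not go with the gene names. The 10 genes lie in the exceptions, on chromosome 4 from 3549041 to 59801589 and chromosome 6 from 3457096 to 17341452 (GRCm38). In these stretches and a further one on chromosome 15, 53.5% of 469 protein-coding IDs reached 20 CPM (a library's counts scaled to the same total, 1000000), against 17.0% of 21389 elsewhere, although the stretches had been chosen for such levels.

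RNA was taken from CD45-positive cells sorted from subcutaneous EL4 tumours, in 7 vector libraries and 6 PSGL1_KO libraries. EL4 is a mouse T-cell lymphoma line and carries CD45 itself, so lymphoma cells can pass the sort beside infiltrating immune cells. The vector group received EL4 cells with a vector and the PSGL1_KO group EL4 cells with PSGL1 knocked out, 500000 cells per mouse, in the right flank of mice 6 to 8 weeks old, and tumours were taken after almost 20 days. The knockout is in the injected cells, while the infiltrating cells come from the host, and the sources used here do not say whether the knockout cells are 1 clone or which strain and sex the mice were. No label says that a replicate is an animal of its own, and a p-value here covers only the spread from library to library. Gene IDs received 3710817 to 5712566 counts per library. Mitochondrial genes took 34.5% of gene counts in vector replicate 5, more than in any other vector library (at most 16.2%), and the same 4 members passed without it. The ID of Selplg lies outside the stretches and had 11 to 53 counts in vector and 3 to 63 in PSGL1_KO libraries, so it does not check the labels, and the sorted-for CD45 gene cannot be read by its name either. File names carry a number that starts with 3 in 2 libraries of each group and with 7 in 5 vector and 4 PSGL1_KO libraries. No label says what it marks, and it is a term of the main fit because many genes differed by it.

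The sequences upstream of B4galt1, the member that passed in all 25 alternatives run, and of Slc35a1, whose difference did not pass the test, are shown as 2 windows that lie outside annotated exons and differ in base composition. RefSeq's promoter table (GRCm38.p6) held 6 of the 10 genes, in 8 windows. Each line gives the 229 bases farthest upstream in the window, 5′ to 3′ on the gene's strand, with every GC box (GGGCGG on either strand, a motif that Sp-family factors can bind) in capitals.
B4galt1, chr4:40854006-40854234, minus strand: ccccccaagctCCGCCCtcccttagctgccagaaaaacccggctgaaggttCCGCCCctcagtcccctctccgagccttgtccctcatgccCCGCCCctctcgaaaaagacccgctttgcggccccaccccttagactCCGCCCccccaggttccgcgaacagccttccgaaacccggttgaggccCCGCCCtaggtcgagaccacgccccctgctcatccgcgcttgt
Slc35a1, chr4:34687460-34687688, minus strand: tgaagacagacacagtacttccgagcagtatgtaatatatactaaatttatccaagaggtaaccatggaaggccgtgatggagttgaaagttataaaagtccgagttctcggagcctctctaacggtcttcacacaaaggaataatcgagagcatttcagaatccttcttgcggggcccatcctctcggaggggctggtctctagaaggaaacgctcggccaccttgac

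The B4galt1 window held 5 GC boxes and was 67.2% G or C, and the Slc35a1 window held 0 and was 47.2% G or C. Of 32851 windows of this length in the table, 29.7% held at least 1 GC box and 1.31% held as many as B4galt1. The window of C1galt1, which overlaps an annotated exon and is not printed, held 4. The window of Manea, which did not pass, was also 67.2% G or C and held 0 GC boxes, and of the windows of Galt, which did not pass, 1 was 55.5% G or C and held 1. A TATA box (TATAAA on either strand) was present once in the Slc35a1 window and in 11.7% of all windows. These matches describe the letters and show no binding.

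Of the 9 glycan assembly genes with enough counts to test, 3 were higher in PSGL1_KO tumours (B4galt1, Galnt12 and Alg2) and 1 was lower (C1galt1), by edgeR's quasi-likelihood test with the file-number digit as covariate and an adjusted p below 0.05. The same test called 13.8% of all 10422 IDs tested higher and 12% lower, and 30.4% and 9.87% of the 375 tested in the stretches, so the members' count is close to that of their surroundings. In the set of libraries with file numbers starting with 7 (the 7 set) it called 11.2% higher and 9.63% lower, and in the set starting with 3 (the 3 set) 12.5% and 10.8%. Their median log2 fold change (log2FC, PSGL1_KO minus vector) was 0.15, beside 0.17 for tested IDs of the stretches and -0.02 for all IDs tested. With the group as the only term, the test called 9.02% of all IDs higher and 5.49% lower (20.8% and 4.53% in the stretches), and of the members B4galt1 alone passed. Fewer cells of a type and less RNA per cell cannot be told apart in these sorted mixtures.

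**Figure D1:**
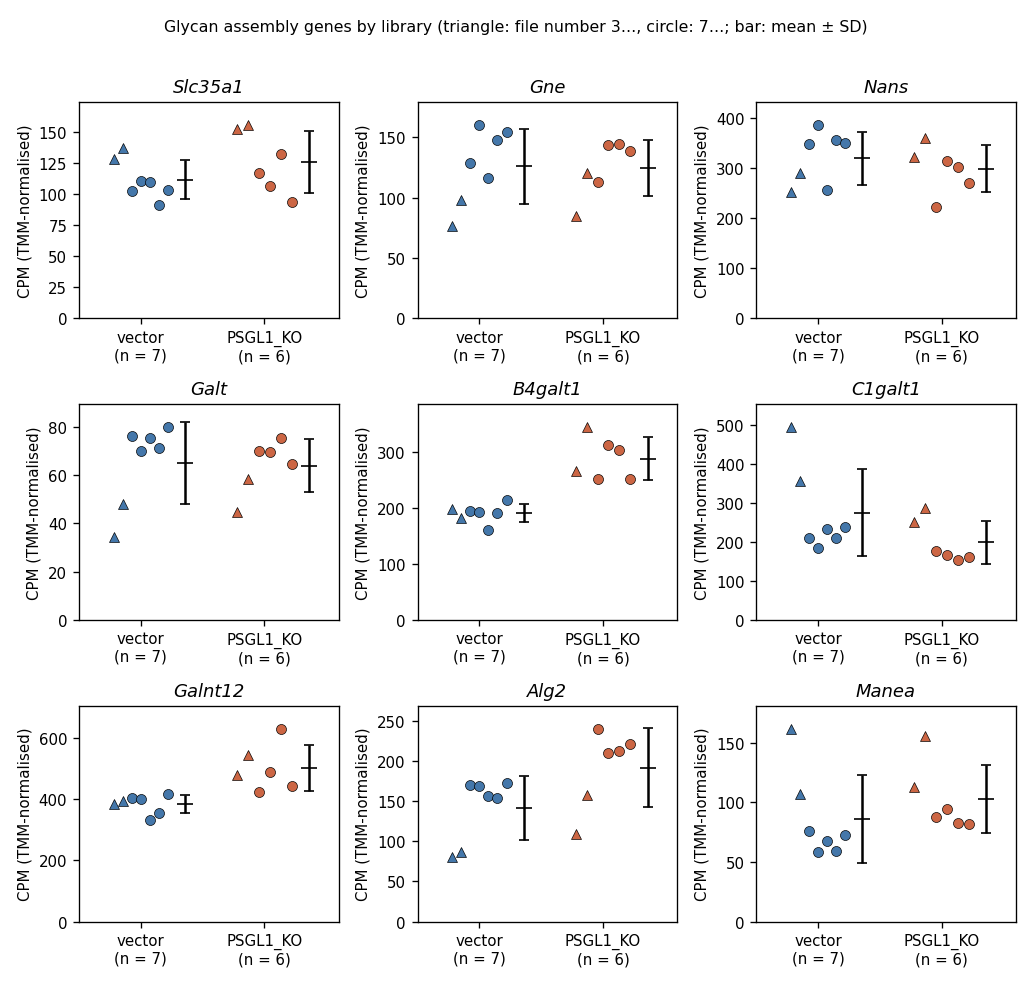
TMM-normalised CPM of the 9 tested genes in each library, 7 vector (blue) and 6 PSGL1_KO (orange). Triangles are libraries whose file number starts with 3, circles those starting with 7, and black bars the mean ± SD. The groups separate fully in B4galt1 and Galnt12, and in C1galt1 and Alg2 they separate only among libraries of the same symbol.

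The sialic acid genes did not differ detectably between the groups. Gne encodes the enzyme that makes and phosphorylates N-acetylmannosamine, the rate-limiting entry to sialic acid synthesis (chromosome 4, 44034075 to 44084177). It ranged from 76.3 to 160.1 CPM in vector libraries, with a median of 128.8 CPM, and from 85.0 to 144.6 CPM in PSGL1_KO libraries, with a median of 130.0 CPM. The ranges overlap almost wholly, and the log2FC was 0.03 with a 95% interval from -0.22 to 0.28 (adjusted p = 0.90, edgeR). Nans, the synthase of the next step (chromosome 4, 46489248 to 46503632), ranged from 251.2 to 385.8 CPM in vector, with a median of 347.9 CPM, and from 221.9 to 359.3 CPM in PSGL1_KO, with a median of 309.0 CPM. Its log2FC was -0.10, with an interval from -0.37 to 0.17 (adjusted p = 0.63).

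Nans had opposite signs in the file-number sets. Within the 3 set its level was 251.2 and 290.1 CPM in vector libraries, below the 322.0 and 359.3 CPM of PSGL1_KO libraries, and the log2FC was 0.36 (adjusted p = 0.15, edgeR). Within the 7 set it averaged 339.1 ± 48.8 CPM (SD, n = 5) in vector and 277.7 ± 41.6 CPM (SD, n = 4) in PSGL1_KO libraries, a log2FC of -0.30 (adjusted p = 0.14, edgeR). The test of that difference gave -0.62 ± 0.23 (SE) with adjusted p = 0.15, and without vector replicate 5 it gave -0.77 with adjusted p = 0.023. Exons of Nans overlap those of Trim14 on the opposite strand over 1356 of 4581 bases, though Trim14 had 1170 counts over all libraries and Nans 18593. The strand setting of the counting is unknown here, so their reads cannot be told apart over those bases.

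Slc35a1, the transporter that carries CMP-sialic acid into the Golgi (chromosome 4, 34663257 to 34687438), ranged from 91.2 to 137.1 CPM in vector, with a median of 109.7 CPM, and from 93.7 to 155.8 CPM in PSGL1_KO, with a median of 124.8 CPM. The highest values of both groups were in libraries with file numbers starting with 3. The log2FC was 0.15, with an interval from -0.06 to 0.36 (adjusted p = 0.31, edgeR). For all 3 sialic acid genes the interval excludes a change of 1 log2 unit in either direction. The sign of Slc35a1 and of Gne turned with scaling on the genes of the stretches (-0.07 and -0.20), and Nans then passed, with -0.32 and adjusted p = 0.028.

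Galt, which turns galactose 1-phosphate into UDP-galactose, the donor used by both galactosyltransferases below (chromosome 4, 41755228 to 41758695), did not differ detectably either. It ranged from 34.3 to 79.9 CPM in vector, with a median of 71.3 CPM, and from 44.8 to 75.4 CPM in PSGL1_KO, with a median of 67.2 CPM. The low values belong to file numbers starting with 3, with 34.3 and 48.0 CPM in vector and 44.8 and 58.2 CPM in PSGL1_KO libraries. The log2FC was 0.03, with an interval from -0.22 to 0.28 (adjusted p = 0.88, edgeR), and it was -0.03 with the group as the only term.

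The galactosyltransferase genes moved in opposite directions. B4galt1 adds galactose to terminal N-acetylglucosamine and so makes the N-acetyllactosamine unit that selectin ligands are finished on (chromosome 4, 40804602 to 40854005). It ranged from 160.6 to 214.3 CPM in vector libraries, with a median of 192.0 CPM, and from 250.1 to 343.7 CPM in PSGL1_KO libraries, with a median of 284.0 CPM. Every PSGL1_KO library lay above every vector library, which held for 4.14% of all IDs tested and 10.1% of those in the stretches (2.41% and 2.4% in the lower direction). B4galt1 rose by a log2FC of 0.59 ± 0.11 (SE), 1.51-fold, with adjusted p = 0.00023 (edgeR). Its levels did not follow the file number: vector libraries averaged 189.5 CPM in the 3 set and 190.3 CPM in the 7 set, and the log2FC was 0.71 and 0.55 in these sets. It passed in all 25 alternatives run, with log2FC from 0.36 to 0.71.

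C1galt1, the core 1 synthase that galactosylates the first GalNAc of mucin-type O-glycans (chromosome 6, 7844842 to 7875687), fell. Vector libraries of the 3 set had 355.6 and 494.7 CPM, above the 250.7 and 286.0 CPM of PSGL1_KO libraries. In the 7 set it ranged from 184.3 to 237.4 CPM, with a mean of 214.6 ± 21.1 CPM (SD, n = 5), in vector and from 153.2 to 177.6 CPM, with a mean of 164.5 ± 10.3 CPM (SD, n = 4), in PSGL1_KO. Within each file-number set all PSGL1_KO libraries were below all vector libraries, while over all libraries the groups overlap, with 4 of 6 PSGL1_KO libraries below the lowest vector library. The log2FC was -0.47 ± 0.11 (SE) with adjusted p = 0.0026 (edgeR). With the group as the only term it was -0.47 ± 0.23 and did not pass, with adjusted p = 0.20. With scaling on genes of the stretches it was -0.69 (adjusted p = 5.4e-05), and -0.71 with the group as the only term (adjusted p = 0.018), which passed. Within the 7 set the log2FC was -0.39 and within the 3 set -0.63, and the difference between the sets did not pass (0.28, adjusted p = 0.51).

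The ratio of B4galt1 to C1galt1 counts within a library is independent of any scaling. In vector libraries it was 0.40 and 0.51 in the 3 set and 0.69 to 1.04 in the 7 set. In PSGL1_KO libraries it was 1.06 and 1.20 in the 3 set and 1.41 to 1.98 in the 7 set. All PSGL1_KO ratios exceeded all vector ratios, although the margin between the highest vector library, replicate 4, and the lowest PSGL1_KO library, replicate 1, was small and crossed the file-number sets. The mean log2 ratio was -0.45 ± 0.52 (SD, n = 7) in vector and 0.56 ± 0.36 (SD, n = 6) in PSGL1_KO, a difference of 1.01. The pair was chosen with the direction of both genes known, so the ratio is a description and has no test.

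**Figure D2:**
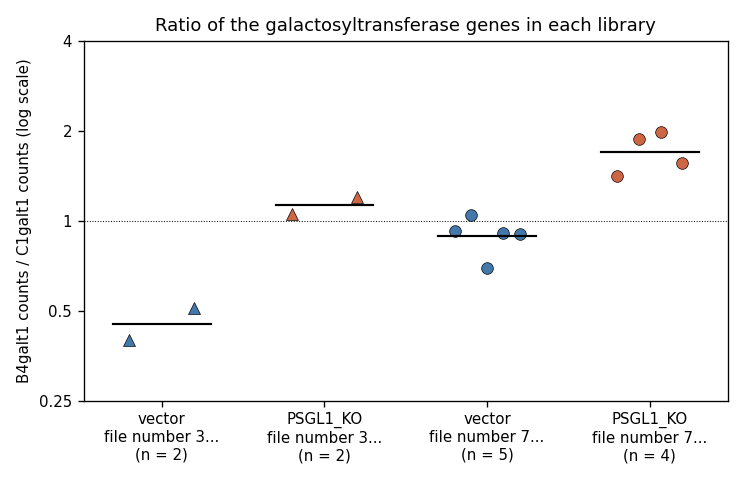
Counts of B4galt1 divided by counts of C1galt1 in each library, on a log axis, by group and file-number set, with black lines at the geometric means. In the 3 set the vector libraries are at 0.40 and 0.51 and the PSGL1_KO libraries at 1.06 and 1.20. In the 7 set they are at 0.69 to 1.04 and 1.41 to 1.98.

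Galnt12, a polypeptide GalNAc-transferase that starts mucin-type O-glycans (chromosome 4, 47091909 to 47123070), rose. It ranged from 333.6 to 416.4 CPM in vector, with a median of 393.9 CPM, and from 425.3 to 631.4 CPM in PSGL1_KO, with a median of 485.6 CPM. All 6 PSGL1_KO libraries were above all 7 vector libraries, and replicate 5 was the highest. The log2FC was 0.39 ± 0.11 (SE), 1.31-fold, with adjusted p = 0.012 (edgeR). This call was near the threshold: it was lost with the group as the only term (log2FC 0.39, adjusted p = 0.051), without PSGL1_KO replicate 5 (log2FC 0.30, adjusted p = 0.051), in the 3 set (log2FC 0.43, adjusted p = 0.078) and with scaling on genes of the stretches (log2FC 0.16, adjusted p = 0.21). Per kilobase of exon Galnt12 had the highest level of the 10 genes, at 168.0 ± 12.9 CPM per kb (SD, n = 7) in vector libraries. Its level over all libraries, 191.9 CPM per kb, stood at the 92.8th percentile of 307 tested protein-coding genes of the stretches.

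Fut9, a fucosyltransferase that makes Lewis x structures (chromosome 4, 25609332 to 25800244), had 0 counts in all 13 libraries. With 3 counts as the limit that a count of 0 allows, this limits its level to between 0.51 and 0.82 CPM, depending on the library, for counting error only. Manea, which lies in the same stretch, had 262 to 628 counts per library. Fut4 and Fut7, the fucosyltransferases known for selectin ligands of leukocytes, lie outside the stretches and cannot be read by their names.

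On the N-glycan side Alg2 rose. Alg2 encodes a mannosyltransferase that extends the lipid-linked oligosaccharide at the endoplasmic reticulum (chromosome 4, 47465067 to 47474333). In the 3 set it had 80.4 and 87.4 CPM in vector and 109.1 and 158.0 CPM in PSGL1_KO libraries. In the 7 set it ranged from 154.4 to 172.3 CPM, with a mean of 164.7 ± 8.35 CPM (SD, n = 5), in vector and from 210.9 to 240.6 CPM, with a mean of 221.4 ± 13.6 CPM (SD, n = 4), in PSGL1_KO. The groups are apart within each set and overlap when the sets are pooled. The log2FC was 0.50 ± 0.10 (SE), 1.41-fold, with adjusted p = 0.0011 (edgeR), and 0.44 ± 0.21 with adjusted p = 0.19 when the group was the only term. With scaling on genes of the stretches it was 0.28 with adjusted p = 0.024.

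Manea, the Golgi endomannosidase that trims glucosylated mannose from N-glycans (chromosome 4, 26324506 to 26346891), did not pass: its log2FC was 0.26, the interval ran from -0.0013 to 0.52, and adjusted p was 0.14 (edgeR). In the 7 set it ranged from 58.0 to 76.3 CPM in vector and from 81.6 to 94.6 CPM in PSGL1_KO, without overlap, and passed there (log2FC 0.37, adjusted p = 0.043). In the 3 set it had 106.6 and 161.8 CPM in vector and 113.2 and 155.8 CPM in PSGL1_KO libraries, which overlap, and the log2FC was 0.04. The test of the difference between the sets did not pass (adjusted p = 0.46). Without vector replicate 1, the library with 161.8 CPM, Manea passed with 0.37 and adjusted p = 0.028.

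Within both file-number sets, 3 members (B4galt1, Galnt12 and Alg2) were higher in PSGL1_KO without overlap and 1 (C1galt1) was lower. The same held for 6.93% of all IDs tested in the higher and 5.1% in the lower direction, and for 19.5% and 6.13% of those in the stretches. The change between groups differed between the file-number sets in 0 of the 9 tested members, against 2.11% of all IDs tested, although only 2 libraries per group carry file numbers starting with 3.

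**Figure D3:**
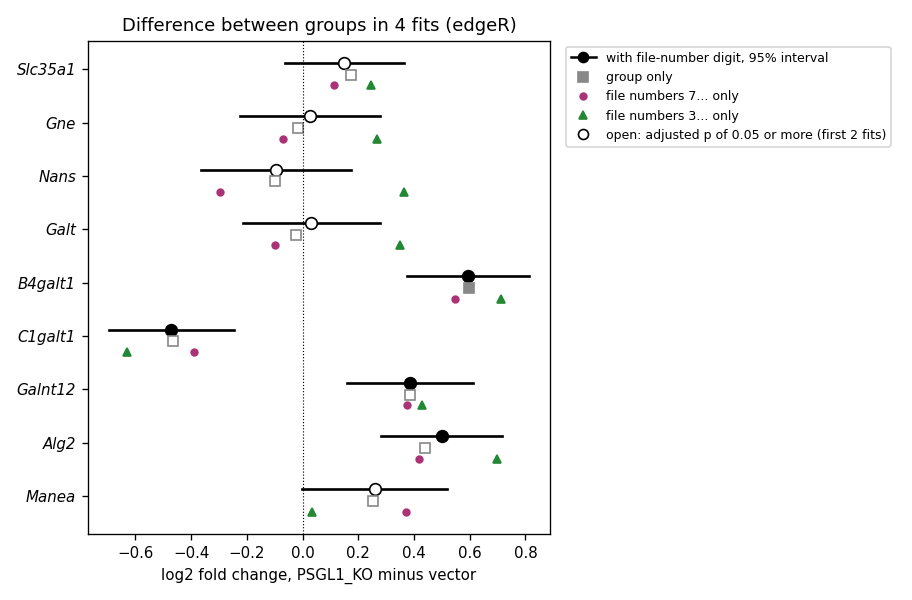
Log2 fold change, PSGL1_KO minus vector, of the 9 tested genes in 4 edgeR fits. Black circles with bars are the fit with the file-number digit and its 95% interval, grey squares the fit with the group only, small circles and triangles the libraries with file numbers starting with 7 and 3. Open circles and squares did not pass an adjusted p of 0.05. Intervals for B4galt1, Galnt12 and Alg2 lie above 0 and that for C1galt1 below 0, and Nans, Gne and Galt have opposite signs in the file-number sets.

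The file number itself separated 6 of the 9 tested members, with 3 higher and 3 lower in the 7 set, beside 39.8% of all IDs tested (20.9% higher, 18.9% lower) and 46.4% of those in the stretches (13.3% higher, 33.1% lower). Alg2 was higher there by 0.85 ± 0.12 (SE, log2), Galt by 0.65 ± 0.13 and Gne by 0.55 ± 0.14. C1galt1 fell by 0.85 on the log2 scale, Manea by 0.83 and Slc35a1 by 0.41, each measured as the 7 set minus the 3 set (adjusted p from 8e-06 to 0.0056 for the 6 genes, edgeR). B4galt1, Galnt12 and Nans had values of -0.06, -0.03 and 0.01 and did not pass. For C1galt1 and Alg2 the file-number difference was larger than the difference between the groups.

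Per kilobase of exon in vector libraries, Galnt12 was followed by Nans at 69.8 ± 11.6 CPM per kb, and then by Slc35a1 at 48.8 ± 6.90, C1galt1 at 45.1 ± 18.3, B4galt1 at 44.9 ± 3.88 and Alg2 at 41.1 ± 11.6 CPM per kb (SD, n = 7 each). The spread of these last 4 pools the file-number sets, and their order differs between them: C1galt1 averaged 69.8 CPM per kb in the 3 set, above Nans at 59.1, and 35.2 in the 7 set, while Alg2 averaged 24.3 and 47.7 CPM per kb. Galt had 26.3 ± 6.93, Gne 19.8 ± 4.89 and Manea 17.7 ± 7.63 CPM per kb, and Gne and Manea also overlap. In PSGL1_KO libraries B4galt1 reached 67.9 ± 9.02 CPM per kb (SD, n = 6), beside 65.2 ± 10.3 for Nans and 32.7 ± 9.09 for C1galt1.

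**Figure D4:**
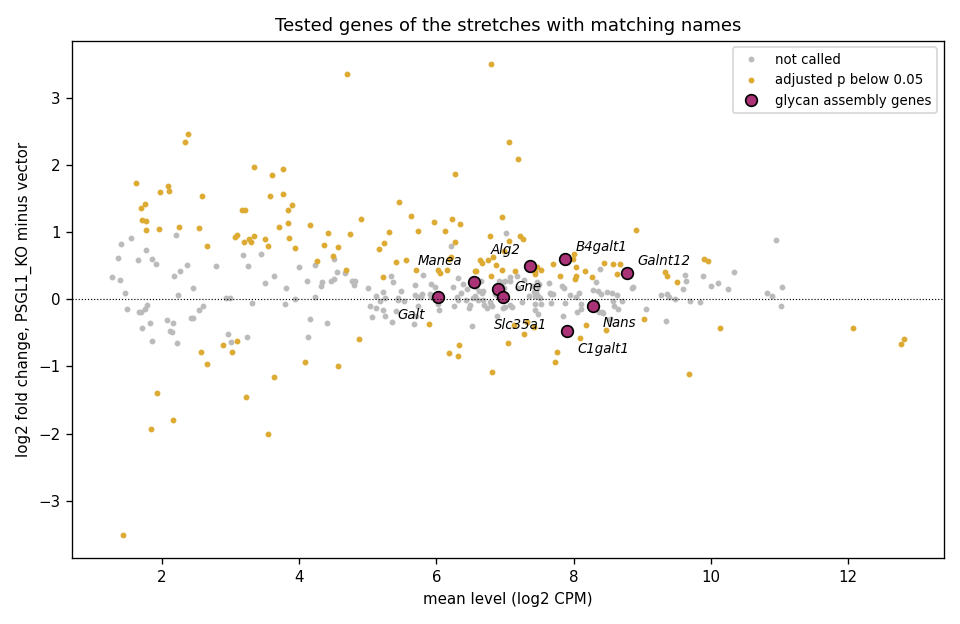
Log2 fold change, PSGL1_KO minus vector, against mean level in log2 CPM for the 375 tested gene IDs of the stretches on chromosomes 4, 6 and 15. Yellow points passed an adjusted p below 0.05, grey points did not, and the 9 tested glycan assembly genes are purple and named. They sit among moderately to highly expressed genes, and their changes, from -0.47 to 0.59, are small beside many others.

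Other glycan genes could be read by name in few cases. Of 112 genes written in lists of selectin-ligand building, sugar donors, N-glycans, mucin-type O-glycans and other glycan work, 17 lay in the stretches. Apart from the members these were 7 genes, of which 4 were higher and 0 lower. Among IDs tested in the stretches 30.4% were higher and 9.87% lower, and among all IDs tested 13.8% and 12%. With the group as the only term 3 of the 7 genes were higher, beside 20.8% of IDs in the stretches. Ugcg, which makes glucosylceramide, was at 319.1 ± 70.4 CPM (SD, n = 7) in vector and 668.9 ± 169 CPM (SD, n = 6) in PSGL1_KO libraries, and rose by 1.03 on the log2 scale (adjusted p = 4.9e-07, edgeR). Impad1, a Golgi phosphatase that clears a by-product of glycan sulfation, rose by a log2FC of 0.52 (adjusted p = 0.0017, and 0.15 with the group only). The syndecan gene Sdc2, which the stromal marker list also holds, rose by a log2FC of 0.92 from 9.66 CPM (adjusted p = 0.011). Pigo of GPI anchors, Gba2, a glucosylceramidase, and Golph3, which holds glycosyltransferases in the Golgi, had log2FC of 0.26, -0.03 and 0.16 and did not pass.

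Markers of cell types moved beside these genes. All 3 myeloid markers (Lyn, Tfec and Atp6v0d2) were higher, as were 30.4% of IDs tested in the stretches. Their summed level was 68.5 to 157.0 CPM in vector and 292.4 to 518.8 CPM in PSGL1_KO libraries, without overlap. In PSGL1_KO most of it was Lyn, with a mean of 246.7 CPM beside 110.5 for Atp6v0d2 and 21.7 for Tfec. Atp6v0d2 by itself overlapped, reaching 73.8 CPM in vector and starting at 70.6 CPM in PSGL1_KO. Of single IDs, 4.14% of all tested and 10.1% in the stretches were higher without overlap. Of 2 B-lineage markers 1, Cd72, was higher, and Pax5 did not pass (log2FC 0.68, adjusted p = 0.054, edgeR). Their sums, most of it Cd72, were 29.9 to 77.5 CPM in vector and 152.7 to 321.5 CPM in PSGL1_KO libraries. Lyn and Cd72 are shared between B-lineage and myeloid cells. Exons of Cd72 overlap those of Tesk1 on the opposite strand over 1423 of 3422 bases. Tesk1 rose too (log2FC 1.87, adjusted p = 9.2e-10, edgeR), and with the strand setting unknown their reads cannot be told apart there. Of 7 stromal markers tested, 5 were higher and 0 lower, with Sdc2 among them (4 higher with the group only), beside the 30.4% called higher in the stretches. The summed level over 8 stromal genes was 892.1 to 2435 CPM in vector and 1107 to 4406 CPM in PSGL1_KO, most of it from Col1a2, which did not pass (562.6 to 2123 and 712.4 to 3978 CPM, adjusted p = 0.12, edgeR). Of 4 T-lineage markers 1 was higher (Bach2) and 1 lower (Sit1), with sums of 433.6 to 606.4 and 362.7 to 556.9 CPM. Most of these sums was Tox, which did not pass. Bach2 was low, at 1.53 to 2.43 CPM in vector and 2.19 to 5.80 CPM in PSGL1_KO libraries. Exons of Bach2 overlap those of Bach2os on the opposite strand over 537 of 9940 bases. Over all libraries Bach2os had 157 counts and Bach2 185, and their reads cannot be told apart there either. No marker of these lists that could be read by name was at 0 in all libraries. Of 11 stromal genes listed, only 8 lay in the stretches and could be read. Their part in the differences of B4galt1, C1galt1, Galnt12 and Alg2 was not tested.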

How the data were processed

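The authors deposited a table of raw counts for each of the 13 samples, with HISAT2, SAMtools, HTSeq and mm10 named in the submitters' processing notes. The sources used here give no tool versions, annotation release or strand setting. Every table held 56923 IDs and 5 summary rows, which were left out before fitting. Summed over every row, no-feature reads took 67.3% to 75.4% and gene IDs 10.5% to 12.5%. Symbols and GRCm38 coordinates (GENCODE M21) matched 52073 IDs without their version, and 52036 of these carried a higher version in the files. Names were used only inside stretches of chromosomes 4, 6 and 15 found by an earlier analysis of these counts. The members, stretches, covariate and gene lists were chosen with earlier results of these data known. The rule named all 10 members and every list gene inside the stretches, whatever their values; some items are not reported here.

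Counts were fitted with edgeR 4.0.16 in R 4.3.3 (quasi-likelihood test, robust dispersion, TMM, filterByExpr, group and file-number digit), as two-sided tests. P-values were adjusted by Benjamini-Hochberg across the 10422 IDs that passed the filter, with a threshold of 0.05. Standard errors were taken as the log2 fold change divided by the square root of its F statistic. Levels are TMM-normalised CPM, and CPM per kb uses union exon length. The test was checked on simulated counts. Alternatives were the group as only term, each file-number set, other scalings and filters, DESeq2 1.42.0, a replicate block and leaving out each library. The closest replicate pair had a mean chi-square of 3.23 per gene ID, above sampling noise, so no library was merged.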

Additional observations from a re-analysis of the deposited data

Results flagged for a closer look

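In 20 sets of values, the 9 tested genes and the ratio of B4galt1 to C1galt1 in each group, 0 had a library standing apart by Dixon's criterion. Each set pooled both file-number sets, so a difference between them widens the spread and can hide such a library.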

How the results depend on the processing

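Calls over all IDs tested were 1435 higher and 1254 lower, in the stretches 114 and 37, and among the glycan assembly genes 3 and 1. With the group as the only term they were 940 and 572 over all IDs, 17 lower in the stretches, and 1 and 0 members. Gne then had -0.016 and Galt -0.025, both with turned sign.

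With TMM factors from protein-coding genes of the stretches, the median log2FC of all IDs moved from -0.02 to -0.24, calls became 859 higher and 2781 lower, with 84 lower in the stretches and 2 members lower, and Slc35a1 (-0.073), Gne (-0.20) and Galt (-0.19) turned. Combined with the group only, an alternative added after seeing the data, this scaling gave 577 IDs higher, 47 of them in the stretches, 1 member higher, and -0.068, -0.23 and -0.24 for Slc35a1, Gne and Galt, with Alg2 at 0.24 (adjusted p = 0.52, edgeR).

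In the 7 set Gne (-0.071) and Galt (-0.10) turned. In the 3 set Nans turned (0.36) and 18 IDs of the stretches were lower. Requiring 20 CPM in 6 libraries, a filter that tests fewer IDs, left 804 IDs higher. DESeq2, its size factors, no filter, no robust estimation and leaving out mitochondrial IDs each kept 3 members higher and 1 lower.

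Leaving out 1 library gave 1198 to 1553 IDs higher, 1020 to 1458 lower, 2 to 4 members higher and 1 lower. Gne turned sign without vector replicate 1 (-0.03), vector replicate 5 (-0.03) or PSGL1_KO replicate 2 (-0.054), and ranged up to 0.096. Galt turned without vector replicate 1 (-0.049) or PSGL1_KO replicate 2 (-0.039), and ranged up to 0.082. The count of IDs whose change differs between the file-number sets, 220, ran from 3 without PSGL1_KO replicate 2 to 661 without vector replicate 5, so it rests on single libraries. The cause of these shifts was not tested.

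Deviations of same-numbered libraries from the fit with group and digit correlated at -0.52 to 0.21. Deviations from the group alone, which keep the file-number difference, correlated at -0.05 to 0.60. With only 2 libraries per group in the 3 set, these values cannot settle whether replicate numbers pair the libraries. A replicate block gave 1176 IDs higher and 962 lower and kept 3 members higher and 1 lower. Fut9, with 0 counts in all libraries, could not be tested.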
